A study of Mus musculus with 36 samples.

Results

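The aquaporins of liver and fat were taken as 7 genes, Aqp1, Aqp3, Aqp4, Aqp7, Aqp8, Aqp9 and Aqp11, chosen by an exact match of the platform symbol. They were read by 16 of the 45037 probe sets tested, 1 for Aqp1 and Aqp8, 2 for Aqp7 and Aqp9, 3 for Aqp4 and Aqp11, and 4 for Aqp3, out of 18193 gene symbols in all. Liver, WAT (white adipose tissue) and BAT (its brown counterpart) gave the RNA, taken from 12 male mice of the outbred ddY stock, on Affymetrix Mouse Genome 430 2.0 arrays, with 1 array for each tissue of each mouse and 36 arrays in all. The mice were bought at 5 weeks of age and acclimated for 1 week. In both groups an oral dose of 37.5 µL per g body weight was given on each of 5 days, and tissues were taken 4 h after the last dose. On the last day food was removed before the dose, and the study's methods do not state that it was returned. The 7 control mice received distilled water, and the 5 CAAM mice received a 1.8% solution of CAAM, an amino acid mixture composed like casein. By the study's methods, 2 more mice given CAAM were excluded because of how their livers looked, and the depot from which WAT was taken is not given in the labels.

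Aquaporins are membrane channels that work as tetramers. The classical ones pass water and little else, whereas the aquaglyceroporins also pass glycerol. In fat, Aqp7 is the channel by which glycerol set free from triglyceride leaves the adipocyte, and in liver Aqp9 takes glycerol from portal blood into the hepatocyte, where it can enter gluconeogenesis. Insulin lowers the transcription of both in mice.

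The levels are distribution free weighted (DFW) scores. A DFW score behaves as a log2 level, but differences among the arrays of 1 tissue are shrunken by a factor particular to the probe set, so that a difference between mice is not a fold change. Scores of mice are therefore given as standardised scores, the distance from the mean of the water mice in units of the SD within groups. Effects are given as standardised differences, CAAM minus water in the same unit, each with an SE of 0.59 (n = 7 and 5). This SE follows from the group sizes alone. It leaves out the error of the SD itself and is too small for large differences.

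To show the sequence in front of the genes whose levels differed most between tissues, the 250 bases before the start are given for Aqp9 and Aqp8, high in liver, and for Aqp7, high in fat. They are RefSeq promoter windows of GRCm38.p6, read 5′ to 3′ on the gene's strand. Aqp9 lies at chr9:71163290-71163539 (minus strand), Aqp8 at chr7:123462044-123462293 (plus strand) and Aqp7 at chr4:41048137-41048386 (minus strand). Aqp7 and Aqp9 each have a second annotated start, and for these the farther upstream one is shown. Capitals mark matches to any of 5 short motifs searched on both strands.
Aqp9: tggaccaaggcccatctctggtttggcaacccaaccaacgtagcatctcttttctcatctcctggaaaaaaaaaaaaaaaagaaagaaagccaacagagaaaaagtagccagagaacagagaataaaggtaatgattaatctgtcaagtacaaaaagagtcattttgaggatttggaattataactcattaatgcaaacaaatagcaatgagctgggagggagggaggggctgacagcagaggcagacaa
Aqp8: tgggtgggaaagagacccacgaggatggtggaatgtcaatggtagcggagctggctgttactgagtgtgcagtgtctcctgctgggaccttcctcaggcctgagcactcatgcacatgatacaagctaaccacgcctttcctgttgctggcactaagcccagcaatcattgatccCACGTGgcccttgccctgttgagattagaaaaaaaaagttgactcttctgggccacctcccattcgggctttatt
Aqp7: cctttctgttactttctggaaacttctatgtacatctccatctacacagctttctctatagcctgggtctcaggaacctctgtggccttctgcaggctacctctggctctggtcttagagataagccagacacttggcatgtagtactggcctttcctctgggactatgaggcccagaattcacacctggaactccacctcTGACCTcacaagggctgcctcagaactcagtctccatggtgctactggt
The motifs were the nuclear receptor element AGGTCA, the forkhead site GTAAACA, the HNF1 element GTTAAT, the E-box CACGTG and the TATA box TATAAA. The Aqp7 window held 1 nuclear receptor motif, on the opposite strand 49 bases before the start. The window of its second start held 2, of which 1 is the same site. This motif was present in 14% of the 32851 windows of this length. The Aqp8 window held an E-box 75 bases before the start, found in 6.02% of windows. No motif matched in the Aqp9 window, and none in the window of its second start. Forkhead sites were in 3.17%, HNF1 motifs in 6.43% and TATA boxes in 12.4% of all windows, and none of these 3 matched in the windows shown. Of the other genes, Aqp3 held a TATA box 29 bases before its start and Aqp11 a nuclear receptor motif 230 bases before its start. Aqp1 held no match, and Aqp4 was not searched.

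The labelled tissues were first checked against their markers. The 4 hepatocyte markers measured had a mean score of 14.76 in every liver array, against 8.70 in WAT and 7.39 to 7.40 in BAT. In WAT 3 of these 4 were above the array median, with Cyp2e1 at 14.0. The 3 white adipocyte markers had 13.23 in every WAT array and 6.59 in liver. In BAT they had 10.20 to 10.21, with 3 of 3 above the array median. The 5 brown adipocyte markers had 11.73 to 11.75 in BAT against 6.82 to 7.33 in the other tissues, where 2 of 5 were above the array median. The hepatocyte and white adipocyte lists were thus not confined to their tissue. A few arrays of each fat stood apart. In WAT, 8 markers of epididymis and male tract averaged 13.17 and 11.81 in water mice 1 and 2, and 9.33 in CAAM mouse 6, against 6.34 to 7.89 in the remaining 9 mice. In BAT, 7 skeletal muscle markers averaged 11.0, 10.15 and 8.88 in water mice 1, 3 and 7 and 10.57 in CAAM mouse 2, against 6.81 to 7.49 in the remaining 8 mice. The 3 tissues appear to have been quantified separately, since the median distance between tissues was 10800 to 14700 times the SD within a group. No test was made between tissues, and a mean score at least 1 apart in water mice is called different below.

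The 7 genes divided by tissue. Aqp9, the hepatocyte glycerol channel, Aqp8, a water channel of the hepatocyte that also passes ammonia and hydrogen peroxide, and 1 probe set of Aqp11, an intracellular aquaporin of the endoplasmic reticulum, were higher in liver. Aqp7 and Aqp1, the water channel of red cells and capillary endothelium, were higher in both fats. Aqp3, an aquaglyceroporin of epithelia, and Aqp4, the water channel of astrocytes and of fast muscle fibres, did not reach a difference of 1 between any tissues.

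Aqp9, at probe set 1424011_at, averaged 11.65 in the livers of water mice, 6.68 in their WAT and 6.39 in their BAT, and 9.54, 6.48 and 6.23 at 1421605_a_at. The difference of liver from WAT at 1424011_at was 4.97, and its liver level lay at the 98.2 percentile of all probe sets. Both probe sets placed the gene in liver, and both were below the array median in both fats.

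The liver score of Aqp8 averaged 10.01, with 6.77 for WAT and 6.61 for BAT, below the array median in both fats. Aqp11 at 1429254_at averaged 9.19 in liver, then 7.57 in WAT and 6.69 in BAT. The order of Aqp11 was the same at 1447606_x_at, with 7.74, 7.26 and 7.01, but no pair of tissues was 1 apart there or at 1455846_at.

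Aqp7 had a mean score of 9.68 in BAT, 9.05 in WAT and 6.32 in liver at 1418849_x_at, and of 8.86, 8.59 and 6.17 at 1418848_at. The fats were 0.64 and 0.28 apart, less than 1, whereas liver minus BAT was −3.37 and −2.7. Affymetrix gives the ending _x_at to probe sets that can bind further transcripts, and 1418848_at has no such ending.

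Aqp1 had a mean score of 11.62 in BAT, 11.44 in WAT and 10.05 in liver. It was above the array median in all 3 tissues, at the 94.3 to 98.4 percentile, so that liver was the lowest of 3 high levels. The endothelial markers, 7 of 7 measured, averaged 7.79 in liver, 8.96 in WAT and 8.37 in BAT. The erythroid markers, 3 of 6 measured, ran the other way, with 8.14 in liver, 6.90 in WAT and 6.83 in BAT. The part of either cell type in the Aqp1 levels was not tested. In tissue RNA, a difference in the number of cells of a type and one in the RNA per cell cannot be told apart.

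The 4 probe sets of Aqp3 had means of 5.63 to 7.22, of which 1422007_at in liver was the only one above the array median. The 3 probe sets of Aqp4 had means of 5.80 to 6.60 and were below it in every tissue.

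Over the 16 probe sets, 4 (of 3 genes) were at least 1 higher in liver than in WAT, where 3.96% of all probe sets were, and 3 (of 2 genes) were at least 1 higher in WAT, where 8.35% were. Against BAT the counts were the same, 4 higher in liver with 5.02% of all, and 3 higher in BAT with 4.6%. None was 1 apart between the fats, where 1.77% of all were higher in BAT and 4.91% in WAT. The counts were the same over all 12 mice and without any 1 water mouse.

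**Figure D1:**
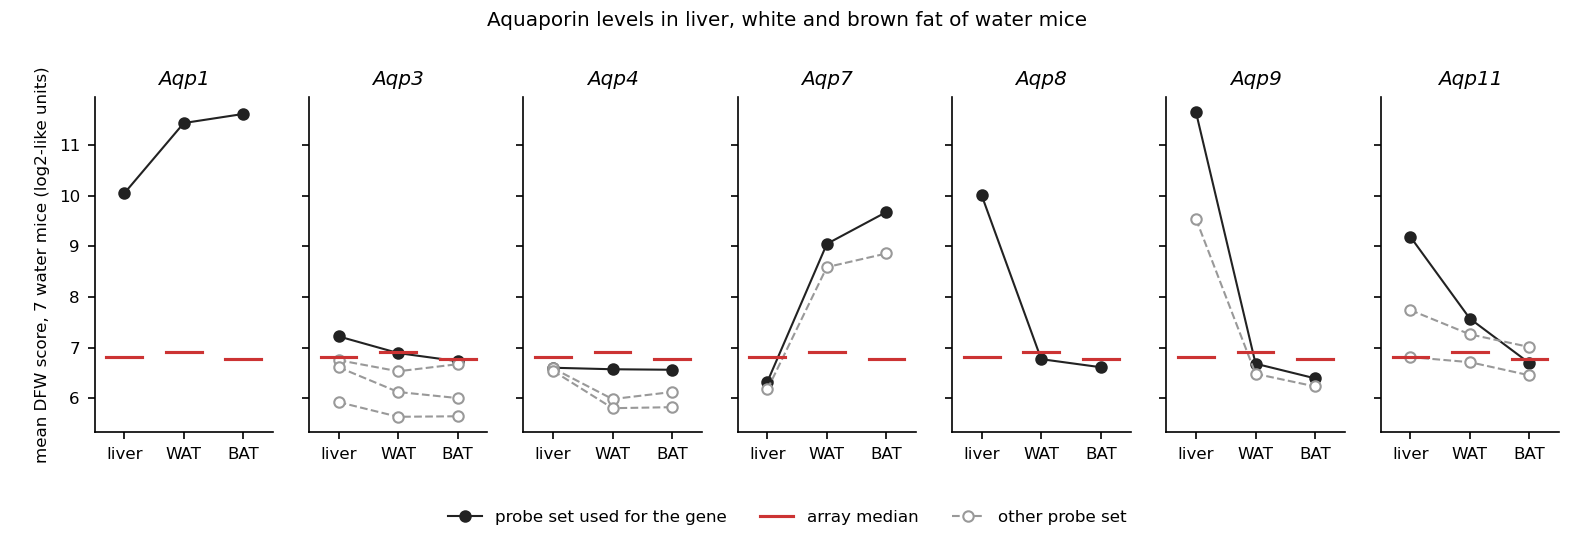
Mean DFW score (log2-like units) of the 7 water mice in liver, WAT and BAT, in 1 panel for each aquaporin. Filled points are the probe set used for the gene, open points its other probe sets, and red bars the array median of the tissue. Aqp9, Aqp8 and Aqp11 fall from liver to fat (11.65 to 6.68 for Aqp9), Aqp7 and Aqp1 rise, and Aqp3 and Aqp4 stay near or below the bars. SDs within a tissue, at most 0.0639, are smaller than the symbols.

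The next comparison asked how CAAM changed these channels within each tissue. The main test was that of the study, rank products, which ranks the difference of every probe set in all 35 pairs of a CAAM and a water array and calls those with an estimated share of false calls, the pfp, under 0.05. It called 2 of the 16 aquaporin probe sets in liver, none in WAT and 2 in BAT. Over all probe sets it called 1.62% higher and 1.18% lower in liver, 0.83% and 1.95% in WAT, and 1.2% and 2.05% in BAT. In liver and in BAT the 2 calls were 1 probe set in each direction.

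The moderated test of limma called no probe set in any tissue (0% of all), aquaporins included, after Benjamini-Hochberg adjustment within each tissue. When limma was fitted once to all 36 arrays, with 1 shared estimate of the spread, it called 399, 343 and 163 probe sets in liver, WAT and BAT, and again no aquaporin. The SD of a probe set can differ widely between tissues, for Aqp9 at 1424011_at 1.25e-05 in liver, 0.0778 in WAT and 2.05e-06 in BAT. A shared spread is too small for the most variable tissue, so these counts can be too high. At an unadjusted p under 0.05 limma had 3047, 1784 and 2886 probe sets in liver, WAT and BAT, and among the aquaporins 0, 0 and 1. In no tissue were the CAAM and water mice of an aquaporin probe set without overlap, which held for 0.442%, 0.222% and 0.329% of all probe sets in liver, WAT and BAT. Over the 16 probe sets the median standardised difference was −0.15 in liver, 0.10 in WAT and −0.26 in BAT, beside −0.09, 0.01 and −0.01 over all probe sets.

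The glycerol exit channel Aqp7 had the largest standardised difference of the 7 genes, in BAT. At 1418849_x_at the standardised scores of the water mice ran from −1.10 over a median of −0.32 to 1.40. Those of CAAM mice 2, 5, 6 and 7 were −3.07, −2.61, −2.49 and −2.87, and that of CAAM mouse 4 was −0.29. Thus 4 of 5 CAAM mice were below all 7 water mice, and CAAM mouse 4 was among them. The standardised difference was −2.26 ± 0.59 (SE), called lower by rank products (pfp 0.0159), but it turned to 0.26 when the scores were quantile normalised again and to 0.59 when arrays were centred on their medians. Rank products did not call it after quantile normalisation (pfp 0.546), whereas centring leaves the ranks within a pair of arrays as they are. The BAT array medians ran from 6.7804 to 6.7818, a spread larger than the within-group SD of 5.39e-05 here. These scalings therefore cannot settle the direction. The exact permutation test over the 792 divisions of the mice gave p = 0.0101 (two-sided; 0.691 after adjustment over all probe sets) and limma an adjusted p of 0.645.

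The second probe set, 1418848_at, showed the same mice low. Its CAAM scores were −1.45, −1.46, −1.88 and −1.99 in mice 2, 5, 6 and 7 and 0.60 in mouse 4, with water mice from −1.30 to 0.99. The same 4 CAAM mice were below all water mice, and the standardised difference was −1.24 ± 0.59 (exact permutation p = 0.0694), not called by rank products (pfp 0.848). Its difference in DFW scores, −1.11e-05 as deposited, also turned, to 0.000872 after quantile normalisation and to 0.000362 after centring.

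Without the 4 BAT arrays high in muscle genes the value at 1418849_x_at was −2.03, and it was no longer called (pfp 0.182, 4 mice in each group). Skeletal muscle markers, all 7 called lower by rank products in CAAM BAT, had a median standardised difference of −0.45, with 1 of 5 CAAM mice and 3 of 7 water mice high.

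In WAT, Aqp7 at 1418849_x_at was −0.74 ± 0.59, with a pfp of 0.0506, just outside the threshold. Its CAAM scores were −0.74, −0.57, −2.02 and −1.35 in mice 2, 5, 6 and 7 and 0.98 in mouse 4, while water mice ran from −1.39 to 1.25. The 4 mice low in BAT were below the water mean in WAT at this probe set, within the range of the water mice except for mouse 6. At 1418848_at, where the difference was −0.31 ± 0.59, CAAM mice 2, 5, 6 and 7 had 0.04, 0.44, −1.86 and −0.56 and mouse 4 had 0.41, so mice 2 and 5 were not below the water mean there. The 4 lowest WAT scores at 1418849_x_at were those of CAAM mouse 6, water mouse 1 (−1.39), CAAM mouse 7 and water mouse 2 (−0.81), the arrays left out below for male tract genes, and without these 4 mice the difference was again −0.74, not called. Rank products called Aqp7 lower in WAT without water mouse 1, water mouse 2 or CAAM mouse 4. In liver, where Aqp7 is below the array median, the value was −1.09 at 1418849_x_at and 0.16 at 1418848_at, and neither was called.

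**Figure D2:**
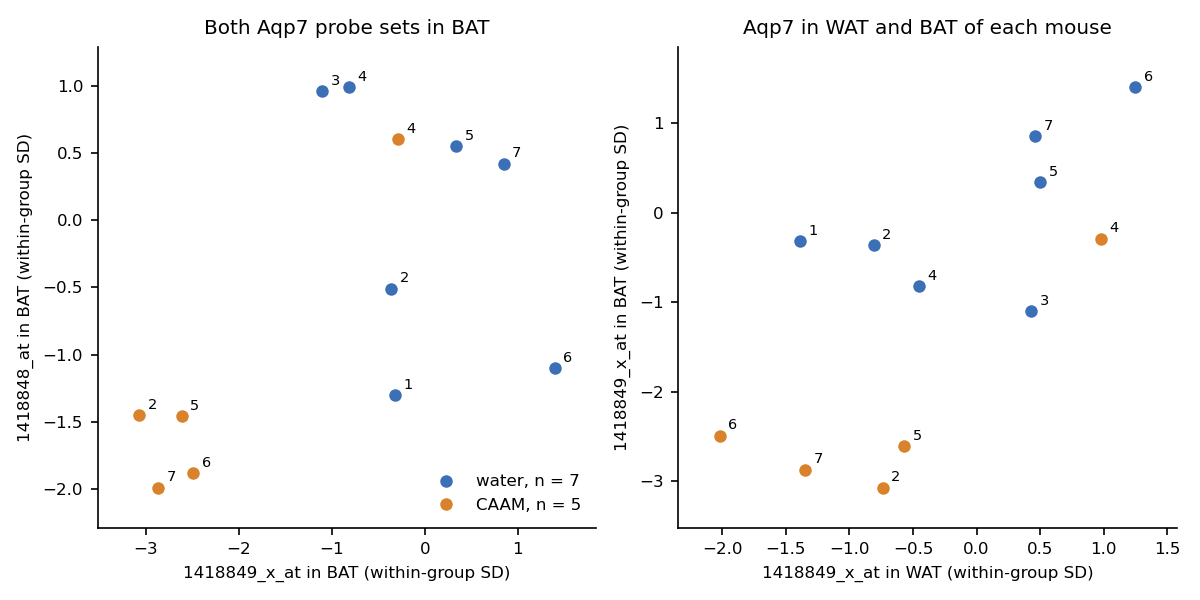
Standardised scores (within-group SD) of Aqp7 in each mouse, numbered, with water mice blue (n = 7) and CAAM mice orange (n = 5). Left, the 2 probe sets in BAT: CAAM mice 2, 5, 6 and 7 lie below all water mice on both axes (−2.49 and lower, −1.45 and lower) and CAAM mouse 4 does not, as deposited, whereas the group difference turns positive at both probe sets with further scaling of the arrays (to 0.26 or 0.59 at 1418849_x_at). Right, 1418849_x_at in WAT and BAT of the same mouse.

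Aqp9 gave no call in any tissue. In liver its standardised difference was −0.01 ± 0.59 at 1424011_at and 0.20 at 1421605_a_at. The CAAM scores in liver were −1.81, 0.97, 0.28, 0.07 and 0.46 in mice 2, 4, 5, 6 and 7, and the water mice ran from −1.38 to 1.16. The groups overlapped throughout, and with an SE of 0.59 a small difference was not detectable.

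In WAT the Aqp9 scores were spread more between mice of a group than between the groups. Here the spread was wide enough to be given as DFW scores, which at 1424011_at were 6.818 and 6.711 in water mice 1 and 2 and 6.632 to 6.672 in the other 5 water mice. CAAM mouse 6 had 6.872, CAAM mouse 5 6.705, and CAAM mice 7, 4 and 2 had 6.682, 6.646 and 6.641. The probe set 1421605_a_at put the same 3 mice on top, with 6.489 in CAAM mouse 6, 6.484 in water mouse 1 and 6.478 in water mouse 2. The mice highest in Aqp9, CAAM mouse 6 and water mice 1 and 2, were those highest in the mean of the male tract markers. Of these 8 markers, 4 were above the array median in CAAM mouse 6 and 6 in each of water mice 1 and 2. In each of water mice 3 to 7 it was 5, so this count does not set the 3 mice apart. CAAM mouse 5, next in Aqp9, had the lowest marker mean, 6.335, with 0 of 8 above the array median.

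The male tract markers themselves ranged from 7.31 to 13.17 in water and from 6.34 to 9.33 in CAAM mice. Aqp9 is a channel of the epididymal epithelium as well as of the hepatocyte. The part of the male tract markers in the Aqp9 scores was not tested. Rank products called Aqp9 lower in WAT without CAAM mouse 6 (pfp 0.0253) and higher without water mouse 1 (pfp 0.0236), water mouse 2 (0.0263), CAAM mouse 2 (0.0329) or CAAM mouse 4 (0.0332). Without water mice 1 and 2 and CAAM mice 6 and 7 it called no aquaporin in WAT. CAAM mouse 7 was left out with the others, although its marker mean of 7.22 was below those of water mice 3 to 7. In BAT, Aqp9 was −0.31 and −0.39 at the 2 probe sets.

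Aqp8 was called lower by rank products in liver (pfp 0.00119), at a standardised difference of −0.44 ± 0.59. CAAM mice 2, 4, 5, 6 and 7 had 1.26, −0.63, −0.76, −0.37 and −1.69, and the water mice −1.05 to 1.57 with a median of −0.30. In 4 of 5 CAAM mice Aqp8 was below the water median, and 1 was below all water mice, but the groups overlapped widely (exact permutation p = 0.477). Its within-group SD, 0.00418 score units, was at the 99.1 percentile of all probe sets, and when every difference was divided by this SD before ranking it was not called (pfp 1.04). Aqp8 was 0.57 in WAT and 0.53 in BAT, not called. The canalicular transporters, among them the bile salt pump Abcb11, 7 of 7 measured, gave no call by rank products in any of the 3 tissues.

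Aqp11 was called higher in BAT at 1429254_at (pfp 0.000814), with a standardised difference of 0.89 ± 0.59. CAAM mice 5 and 6, at 2.73 and 1.62, were above all water mice, whose scores ran from −0.65 to 1.42, and CAAM mice 2, 4 and 7 had −0.07, −0.37 and 0.54. The other probe sets gave 0.40 at 1447606_x_at and −0.57 at 1455846_at, so the direction differed between them. The within-group SD at 1429254_at was at the 99.4 percentile, and there too no call remained after division by the SD (pfp 0.829). In liver and WAT this probe set was −0.48 and −0.79, not called.

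Aqp4 was called higher in liver at 1434449_at (pfp 0.0461; standardised difference 0.61 ± 0.59), below the array median, while 1447745_at gave −0.78 and 1425382_a_at 0.36, not called. The CAAM scores at 1434449_at were 0.99, 0.18, −0.13, 1.49 and 0.50, all within the water range of −1.60 to 1.79. The call was lost without any 1 of 8 mice (water mice 3, 5 and 7 and each CAAM mouse; pfp 0.0633 to 0.197), with quantile normalisation (0.0969), with division by the SD (0.966) and with the sum of ranks (1.07). In BAT the Aqp4 scores at 1434449_at were 5.827 in water mouse 1, 5.822 in CAAM mouse 2, 5.816 in water mouse 3 and 5.813 to 5.814 in the other 9 mice. The 3 highest were the 3 mice with the highest muscle markers, in the same order, whose part in the Aqp4 scores was not tested. Water mouse 1 and CAAM mouse 2 were also the highest at 1425382_a_at, with 6.116 each after rounding.

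**Figure D3:**
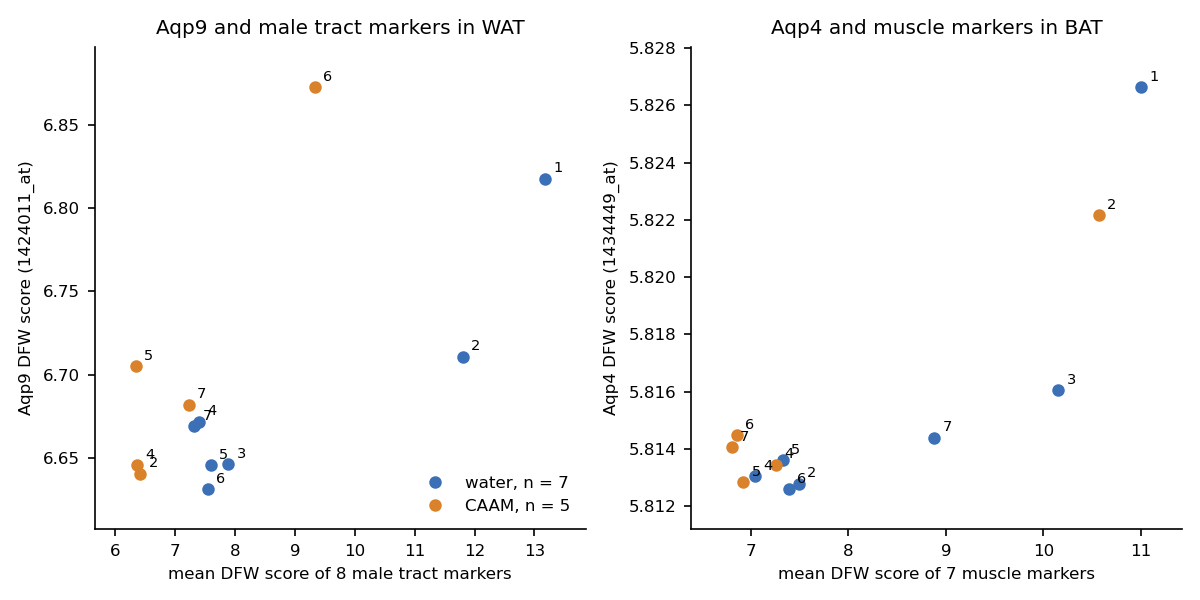
Left, DFW score of Aqp9 (1424011_at) against the mean DFW score of 8 male tract markers in WAT. Right, DFW score of Aqp4 (1434449_at) against the mean of 7 muscle markers in BAT. Points are mice, numbered, blue for water (n = 7) and orange for CAAM (n = 5); in WAT CAAM mouse 6 (6.872) and water mice 1 and 2 (6.818 and 6.711) are highest, and in BAT water mouse 1 (5.827) and CAAM mouse 2 (5.822). The y axes do not start at 0.

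Aqp1 was called in no tissue, with 0.56 in liver, −0.38 in WAT and −0.41 in BAT. In WAT its lowest scores were −1.96 in CAAM mouse 6 and −1.46 in water mouse 1, and the other mice lay between −0.79 and 1.12. Mesothelium, which also carries Aqp1, had 6 of 6 markers called lower in CAAM WAT, with a median standardised difference of −1.84 and mean scores of 7.952 to 7.970 in water and 7.943 to 7.957 in CAAM mice, and its part in the Aqp1 values was not tested. Aqp3 was 0.04 in liver, −0.06 in WAT and 0.73 in BAT at 1422007_at, and none of its 4 probe sets was called in any tissue.

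**Figure D4:**
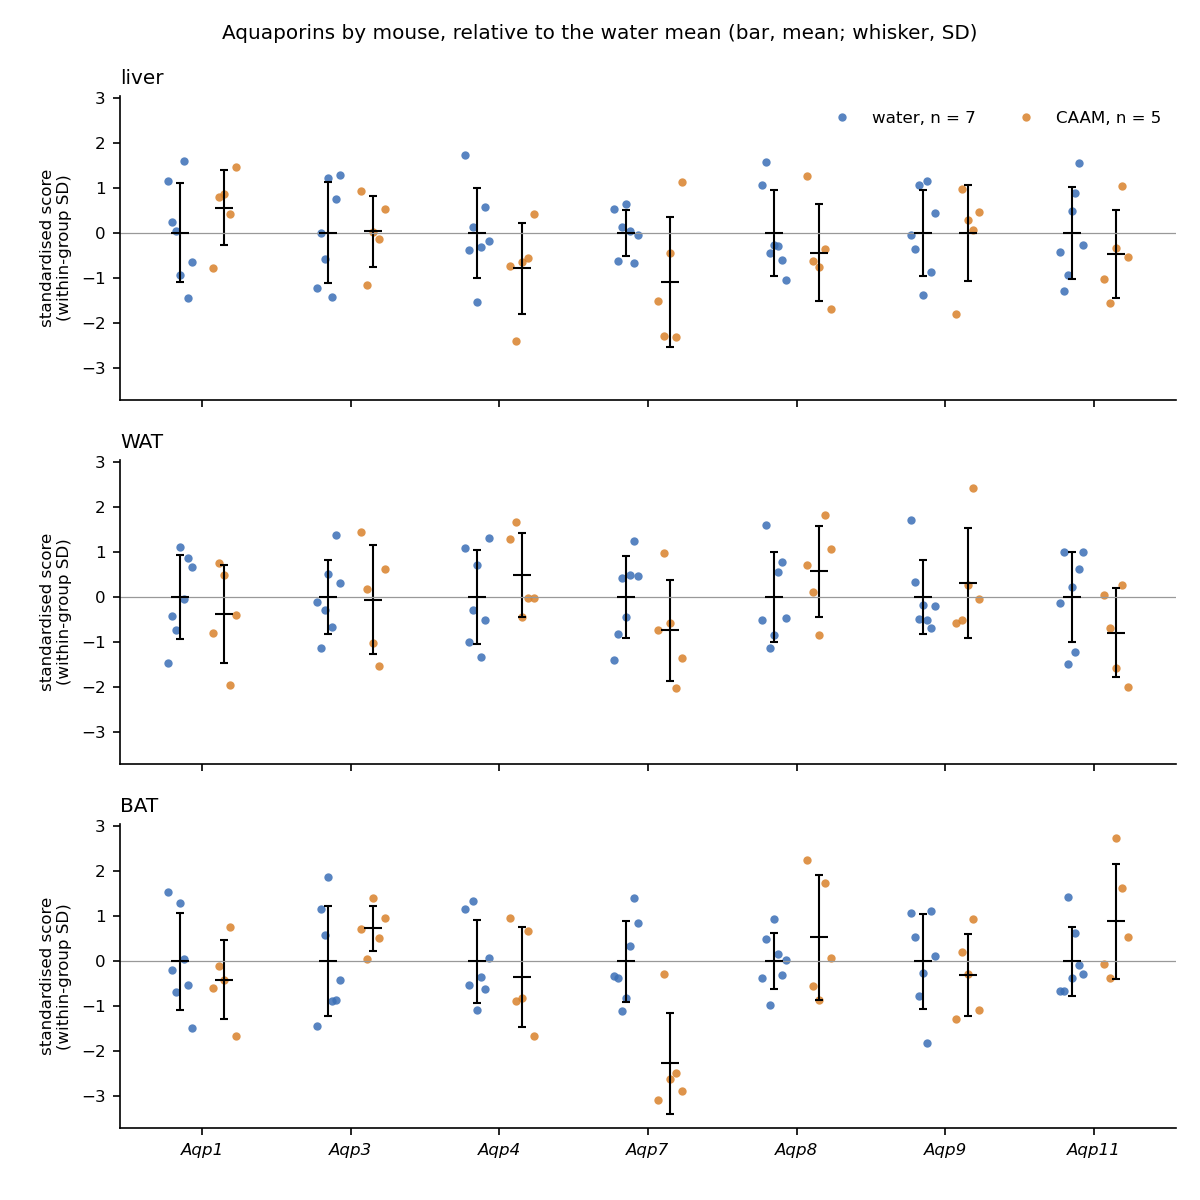
Standardised score (within-group SD, relative to the water mean) of each mouse for the 7 aquaporins in liver, WAT and BAT, with water (blue, n = 7) and CAAM (orange, n = 5), the bar at the group mean and the whisker 1 SD. CAAM and water mice overlap in every panel; Aqp7 in BAT, at −2.26, has 4 CAAM mice below all water mice as deposited, a difference that turns to 0.26 after quantile normalisation and to 0.59 after centring.

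Whether the CAAM effect differed between tissues was asked of the differences between tissues within each mouse, after each tissue was brought to its own SD. No aquaporin probe set was called for liver against WAT, liver against BAT or BAT against WAT (limma, adjusted p 0.53 at the lowest), where 0.329%, 0.273% and 0.0622% of all probe sets were. An unadjusted p under 0.05 was found for 0, 0 and 2 of the 16.

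The genes around the aquaglyceroporins were read from lists, each gene by 1 probe set. Of 8 genes of glycerol release and use, rank products called 1 in each tissue, G0s2, the inhibitor of adipose triglyceride lipase. G0s2 was called lower in liver (−0.56) and higher in WAT (0.84) and BAT (2.02, limma adjusted p = 0.656). The lipases Pnpla2, Lipe and Mgll were not called, with −0.22, −1.19 and −0.61 in BAT. Gpd2, the mitochondrial glycerol-3-phosphate dehydrogenase, had −2.44 in BAT (limma adjusted p = 0.612, not called by rank products), which turned to 0.20 and 0.85 under the same scalings that turned Aqp7.

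Of 4 genes that carry glycerol carbon to glucose, Pck1, the cytosolic PEP carboxykinase, and G6pc, the catalytic subunit of glucose-6-phosphatase, were called higher in liver, at 1.17 and 0.42. Fbp1, fructose-1,6-bisphosphatase, was called higher in BAT (1.34) and lower in WAT (−0.23), where its scores of 6.73 and 7.13 are near the array median. Unadjusted limma p in liver was 0.065 for Pck1 and 0.476 for G6pc, with 5 and 3 of 5 CAAM mice above the water median. For Fbp1 the unadjusted limma p was 0.0388 in BAT and 0.692 in WAT, with 5 and 2 CAAM mice above it.

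Of 10 insulin and fasting regulators, 3 were called in liver, 1 in WAT and 3 in BAT. In liver the insulin receptor substrate Irs2 (−1.96) and the forkhead factor Foxa2 (−1.73) were called lower and Igfbp1, an insulin-repressed binding protein, was called higher (1.39). Unadjusted limma p for these in liver was 0.00564, 0.0112 and 0.0325, with 0, 1 and 5 of 5 CAAM mice above the water median. In BAT Irs2 (1.99), Irs1 (0.67) and the coactivator Ppargc1a (0.32) were called higher. Their unadjusted limma p in BAT was 0.00513, 0.267 and 0.584, with 5, 4 and 2 of 5 CAAM mice above the water median. In WAT Igfbp1 was called lower (−0.15). The signs of the called list genes were the same under both further scalings of the arrays, but some sizes were not. With quantile normalisation G0s2 in BAT fell from 2.02 to 0.43 and Irs1 in BAT from 0.67 to 0.29. Ppargc1a in BAT rose from 0.32 to 0.65. With centring G0s2 and Irs1 in BAT were 1.90 and 0.93. None of these list genes was called by limma, and ranking after division by the SD was not read for them. The 5 other aquaporins, Mip, Aqp2, Aqp5, Aqp6 and Aqp12, gave no call in any of the 3 tissues.

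**Figure D5:**
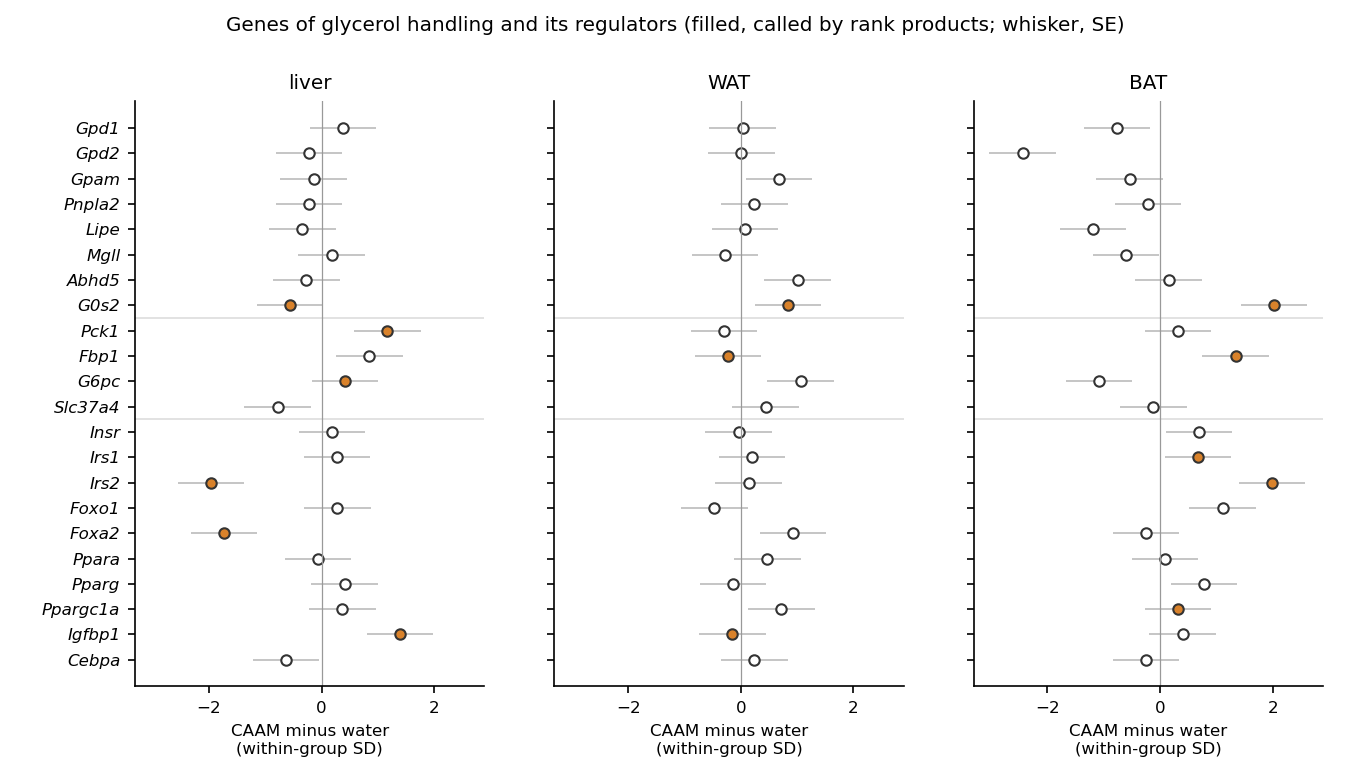
Standardised difference, CAAM minus water in within-group SDs, of genes of glycerol release and use (top), glucose output from glycerol (middle) and insulin and fasting regulators (bottom) in liver, WAT and BAT. Whiskers are the SE of 0.59 and filled points were called by rank products. G0s2 is −0.56 in liver and 2.02 in BAT, where it falls to 0.43 with quantile normalisation. Irs2 is −1.96 in liver and 1.99 in BAT, and Gpd2 in BAT (−2.44) turns to 0.20 and 0.85 with further scaling.

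Last, the genes most like each aquaporin were sought in the tissue where it was highest, by Spearman correlation over the 12 mice among 18193 symbols. For Aqp7 in BAT these were Nr2f1 (rho = 0.94), Ccm2l (0.92) and Ank2 (0.91). For Aqp8 in liver they were Zfp623 (0.94), Scd1, the stearoyl-CoA desaturase (0.94), and Cox20 (0.90). Rfx1 (0.94), Gabra3 (0.88) and Trmt12 (0.88) were nearest to Aqp9 in liver. Chek1 (0.96), Fam214b (0.94) and Plcb4 (0.94) were nearest to Aqp1 in BAT, and Chchd4 (0.94), Bet1l (0.93) and Gpr152 (0.92) to Aqp11 in liver. Aqp3 and Aqp4 had Msantd1 (0.95) and Fzd8 (0.94) as their nearest in liver. These are the highest of many values on the same 12 arrays and include the difference between the groups.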

How the data were processed

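The authors extracted RNA, hybridised 1 Affymetrix array per tissue and mouse and, per their methods, quantified the arrays with the DFW algorithm in R (version 2.7.2 in the submitters' processing notes) with Bioconductor. The deposited values are these DFW scores, with a level like log2 and no detection calls; the number of arrays limits precision. Array scan dates and batches are not given in the sources used here. VAAM arrays of the study were not analysed here.

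From the scores of 45101 probe sets, 64 controls were left out. Platform symbols named 34945 probe sets once, 932 several times and 9160 not at all. CAAM and water mice were compared within each tissue by rank products (all 35 pairs, 100 permutations within arrays, 20 for alternatives, pfp under 0.05 per direction), by limma 3.58.1 in R 4.3.3 with Benjamini-Hochberg adjustment, and by the exact permutation test over 792 divisions, with numpy 2.4.6 and pandas 2.3.3. The limma test of whether the CAAM effect differed between tissues used within-mouse differences of values divided by their own estimated SD, which makes its p-values too small. The scripts were tested on simulated data. There rank products ran on scores already divided by the SD, so the main test, which ranks the deposited scores, was not itself checked. The planned test of levels between tissues was replaced by a difference of at least 1, because the tissues appear to have been scaled separately. One probe set per gene, that with the highest mean over the 36 arrays, gave the values by mouse. Every member is named, with the pathway list genes called by rank products, some of those lowest in limma p, and up to 3 genes of highest Spearman correlation. Of those lowest in limma p, Slc4a2 in BAT (−1.94, unadjusted limma p 0.00692) and Atp8b1 in liver (1.16, 0.0656), both of the canalicular list, were among those not named above. Pnpla2 and Mgll were named after their values were seen, to complete the lipases. Members and lists were chosen with earlier results of these data known. Mice are separate animals of 1 experiment, and mouse numbers do not pair animals between treatments.

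Marker lists were read as mean scores. Beside the calls given in the text, rank products called the following markers. In liver these were 5 of 7 macrophage and 2 of 5 neutrophil markers higher, and 1 of 3 erythroid and 1 of 5 brown adipocyte markers lower. In WAT 4 of 5 cholangiocyte, 1 of 7 endothelial and 1 of 5 brown adipocyte markers were lower, 1 of 5 neutrophil and 1 of 7 muscle markers higher, and of 8 male tract markers 5 were lower, 2 higher and 1 both. In BAT 4 of 7 macrophage markers were lower and 1 higher, 1 of 3 white adipocyte markers was called in each direction, 1 of 5 brown adipocyte markers was higher and 1 both, and 1 of 4 hepatocyte markers was higher.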

Additional observations from a re-analysis of the deposited data

Results flagged for a closer look

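In 13 of the 96 groups of 5 or 7 mice, 1 mouse lay far from the rest of its group by Dixon's 95% criterion, which chance alone meets in about 1 of 20 groups. The values are standardised scores, and causes were not tested.

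In BAT, Aqp7 was highest in CAAM mouse 4 at both 1418849_x_at (−0.29) and 1418848_at (0.60), as the 4 other CAAM mice were low. Aqp4 in BAT was highest in water mouse 1 (2.17 at 1425382_a_at and 2.41 at 1434449_at) and in CAAM mouse 2 (1.35 and 1.44), the mice with the highest muscle markers. Aqp9 in WAT was highest in water mouse 1 (1.71 at 1424011_at and 1.5 at 1421605_a_at) and in CAAM mouse 6 (2.41 and 2.51), both high in male tract markers. The remaining ones concern dim probe sets in BAT. Aqp3 was lowest in water mouse 2 at 1450460_at (−2.06) and in water mouse 1 at 1422008_a_at (−0.95), and Aqp11 in CAAM mouse 7 at 1455846_at (−2.86).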

How the results depend on the processing

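The tissue counts (7, 7 and 0 probe sets at least 1 apart) stayed within 1.5 times under every alternative run, and limma called no aquaporin under any of its alternatives, including the replicate block (0 in each tissue); the exact permutation test, run on the deposited scores only, called none. Same-numbered mice did not deviate together (correlations −0.19 to 0.15). Rank products was less steady. In liver its 2 calls became 1 with quantile normalisation or without dim probe sets and 0 with differences divided by the SD or with the sum of ranks, in BAT 2 became 1 with quantile normalisation or division by the SD and 0 without dim probe sets or with the sum of ranks. In WAT 0 became 1 with centred arrays, where ranks are the same and only 20 permutations were drawn. Leaving out 1 mouse gave 1 to 2 calls in liver, 0 to 2 in WAT and 2 to 3 in BAT, and the doubted arrays removed, an alternative chosen after seeing the data, 0 in WAT and 2 in BAT (Aqp11 and Aqp4 at 1434449_at). Aqp7 in BAT (−2.26; −3.66 to −2.04 without 1 mouse) turned to 0.26 with quantile normalisation and 0.59 with centring. BAT array medians ran from 6.7804 to 6.7818, a spread larger than the within-group SD of 5.39e-05 at this probe set. Neither scaling can therefore settle its direction. With centring in liver, 32866 probe sets had an unadjusted limma p under 0.05, of which 151 were higher. Among them were 12 of the 16 aquaporin probe sets. Aqp11 in BAT turned to −0.57 at 1455846_at and Aqp4 in liver to −0.78 at 1447745_at. A single limma fit of all tissues moved the calls over all probe sets from 0 to 399, 343 and 163 (liver, WAT, BAT). That fit shares 1 spread between tissues whose within-group SDs differ, so its counts can be too high. Over all 16 probe sets the sign changed with quantile normalisation in 3, 9 and 10 (liver, WAT, BAT) and with centring in 5, 6 and 10. The planned limma tests of score levels between tissues, paired and unpaired, were not run, since the tissues appear to have been scaled separately.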
